A study of Homo sapiens with 6 samples.

Results

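Replication-dependent histone genes encode the linker histone H1 and the core histones H2A, H2B, H3 and H4, the proteins around which newly copied DNA is wound. A protein-coding gene was a member when its current symbol ran from H1-1 to H1-6, or was made of H2AC, H2BC, H3C or H4C and a number. This rule took 69 of the 61731 genes in the expression table, namely 6 genes of class H1, 17 of H2A, 18 of H2B, 13 of H3 and 15 of H4. By older nomenclature 55 of them formed the HIST1 cluster on chromosome 6 and 11 the HIST2 cluster on chromosome 1, with 2 HIST3 genes also on chromosome 1 and 1 HIST4 gene on chromosome 12.

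RNA was sequenced from U87, an established human glioblastoma line, to learn which transcripts differ when CHRM3, the M3 muscarinic acetylcholine receptor, is knocked down. The 3 KD libraries came from U87 cells infected with a lentivirus against CHRM3. The 3 NC libraries were labelled normal control, while the figure legends of the study define NC as negative control. Its methods do not say whether NC cells were infected with a control lentivirus. No other treatment was named for either group. Which CHRM3 knockdown sequence the KD libraries carry, and whether all carry the same one, is not given in the sources used here. The sources used here do not say that libraries of a group were separate cultures, so p-values measure only the spread between these libraries, which may be technical.

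Expression was given as TPM, the share of transcripts scaled to a fixed total, which also allows for transcript length. TPM keeps no read depth, so the number of reads behind a value is unknown. Each library had from 22597 to 23311 genes with a TPM over 0. CHRM3 itself was at 0.02, 0.09 and 0.13 TPM in NC 1 to 3 and at 0.13, 0.01 and 0.02 TPM in KD 1 to 3. These groups overlapped fully (exact two-sided permutation p = 0.8, where 3 against 3 libraries cannot go below 0.1), so the grouping rests on the labels and KD stands for the libraries labelled CHRM3 knockdown. Among glioma markers VIM (6574 ± 77.2 TPM in NC, SD, n = 3) and CD44 (597 ± 21.6) were abundant, whereas GFAP was at 1.16 ± 0.219 TPM and S100B, SOX2 and OLIG2 were under 1 TPM. By limma, 1 of the 4 glioma markers tested was lower in KD (CD44) and 2 were higher (NES, except with no limit on low values, and VIM, except with quantile normalization), where 24.0% of all tested genes were lower and 12.1% higher. The leukocyte markers summed to 0.15 to 0.62 TPM in a library, with TYROBP and CD3E at 0 throughout and LYZ the most abundant, and the endothelial markers summed to 0.04 to 0.25 TPM.

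Replication-dependent histone genes are transcribed mainly in S phase, when DNA is copied. Their mRNAs mostly have no introns and end in a conserved stem-loop in place of a poly(A) tail. The stem-loop is bound by SLBP, and the U7 small nuclear ribonucleoprotein directs the cut behind it. Variant histones encoded elsewhere are mostly made from polyadenylated mRNAs, many of them through the whole cell cycle. Libraries prepared for mRNA recover RNA without a tail poorly. The sources used here name different kits and do not settle whether poly(A) selection was applied. The levels below are therefore compared only between these libraries and are not the total histone mRNA of a cell. In bulk RNA, fewer cells in S phase and less histone mRNA per cell cannot be told apart.

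The stem-loop was looked for in the GENCODE 29 transcripts, which held all 69 members. It was searched as 6 bases beginning with GG, 4 loop bases beginning with TT and 6 bases ending with CC, with the arms able to pair and G-T pairs allowed. For 32 members every annotated transcript was coding sequence only, where no stem-loop could be seen. Of the other 37 members, 30 held it in some transcript, and whether the annotated transcripts of the other 7 reach its place was not tested. The same pattern was found in some transcript of 425 of all 19684 protein-coding genes (2.16%). Of the members found lower in KD below, H2AC15, H2BC12 and H4C4 had coding sequence only, and H1-4 held no match. The stem-loops of the other lower members are shown, with that of H4C14, the H4 gene with the highest mean over the 6 libraries. Each has 5 flanking bases on each side and the stem arms in capitals:
H2AC18: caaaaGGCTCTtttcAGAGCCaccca
H2AC6: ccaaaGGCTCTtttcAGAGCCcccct
H2BC8: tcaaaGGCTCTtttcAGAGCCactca
H3C15: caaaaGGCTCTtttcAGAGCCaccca
H4C8: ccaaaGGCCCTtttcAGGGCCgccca
H4C14: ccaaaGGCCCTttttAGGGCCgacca
The stem differed between classes. All 8 H4 members with a stem-loop had arms of GGCCCT and AGGGCC, and 21 of the 22 such members of H2A, H2B and H3 had GGCTCT and AGAGCC, the exception being H2AC11 with GGCTCT and AGGGCC. Of the H1 members only H1-4 and H1-6 had a transcript beyond the coding sequence, and neither held the pattern. Some annotated transcripts also ran on past the coding sequence. The polyadenylation signal AATAAA or ATTAAA was found in the last 50 bases of a transcript for 23 members. In H4C11 only 6 bases followed the stem-loop, so its match lay before the stem-loop.

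Promoters were taken from RefSeq (GRCh38.p14), whose table held 64 of the 69 members, as 250 bases before to 50 bases after the start of transcription. CCAAT was found on either strand in 54 of the 64 promoters (84.4%, against 34.6% of all 35116 promoters of this length), and it was in every promoter of H1, H2A, H2B and H3 but in 3 of 13 of H4. The TATA motif TATAAA was in 65.6% of the members' promoters against 11.5% of all. The octamer ATTTGCAT was in 14 of 18 H2B and 11 of 16 H2A promoters, in 1 of 11 of H3 and in none of H1 and H4, against 1.77% of all promoters. Some H2A and H2B genes lie head to head, as do H2BC8 (minus strand, ending at chr6:26216692) and H2AC8 (plus strand, starting at chr6:26216975). Windows of such pairs overlap, so 1 site can count for both genes and these counts are not of separate promoters. AAACACA was in all 6 H1 promoters and in 5.64% of all. The 200 bases before the start are shown for the 2 most abundant members, H2BC12 (chr6:27146859-27147058, minus strand) and H2AC18 (chr1:149842751-149842950, minus strand), and for the H1 genes that were called in opposite directions, H1-2 (chr6:26056471-26056670, minus strand) and H1-4 (chr6:26156129-26156328, plus strand). Capitals mark these 4 motifs on either strand:
H2BC12: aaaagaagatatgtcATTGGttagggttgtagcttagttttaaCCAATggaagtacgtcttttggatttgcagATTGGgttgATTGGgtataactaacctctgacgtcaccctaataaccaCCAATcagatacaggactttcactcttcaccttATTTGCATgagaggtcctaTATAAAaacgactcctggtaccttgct
H2AC18: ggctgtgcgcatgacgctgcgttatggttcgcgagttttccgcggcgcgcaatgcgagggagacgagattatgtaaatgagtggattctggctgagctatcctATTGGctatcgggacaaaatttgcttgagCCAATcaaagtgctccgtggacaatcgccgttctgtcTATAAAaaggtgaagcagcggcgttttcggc
H1-2: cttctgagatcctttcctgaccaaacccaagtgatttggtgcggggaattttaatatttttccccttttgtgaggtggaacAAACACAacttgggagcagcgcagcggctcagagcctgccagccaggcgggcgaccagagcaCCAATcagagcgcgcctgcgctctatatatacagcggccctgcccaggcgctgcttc
H1-4: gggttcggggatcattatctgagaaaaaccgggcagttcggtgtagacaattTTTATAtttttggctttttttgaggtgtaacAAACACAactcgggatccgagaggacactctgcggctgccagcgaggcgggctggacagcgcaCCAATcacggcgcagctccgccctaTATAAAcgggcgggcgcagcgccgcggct
In the H2BC12 promoter the octamer began 46 and TATAAA 27 bases before the start, with CCAAT at 5 places on either strand. Both H1 promoters held AAACACA, at 119 bases before the start in H1-2 and 117 in H1-4, and CCAAT at 57 and 54 bases. These matches describe the letters in the window and not a bound site.

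A few genes held most of the members' summed TPM, which is not a share of the histone mRNA of a cell. H2BC12, an H2B gene of the chromosome 6 cluster, and H2AC18, an H2A gene of the chromosome 1 cluster, held 52.7% of the members' summed TPM in NC, the top 5 members 68.1% and the top 10 members 78.0%. By class, H2B held 44.1% of the NC sum, H2A 34.6%, H4 9.62%, H1 7.85% and H3 3.93%. At the other end, 7 members were listed at 0 TPM in every library (H1-6, H2AC1, H2AC19, H2BC1, H3C14, H4C6 and H4C7). The median member had a mean of 2.29 TPM over the 6 libraries.

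**Figure D1:**
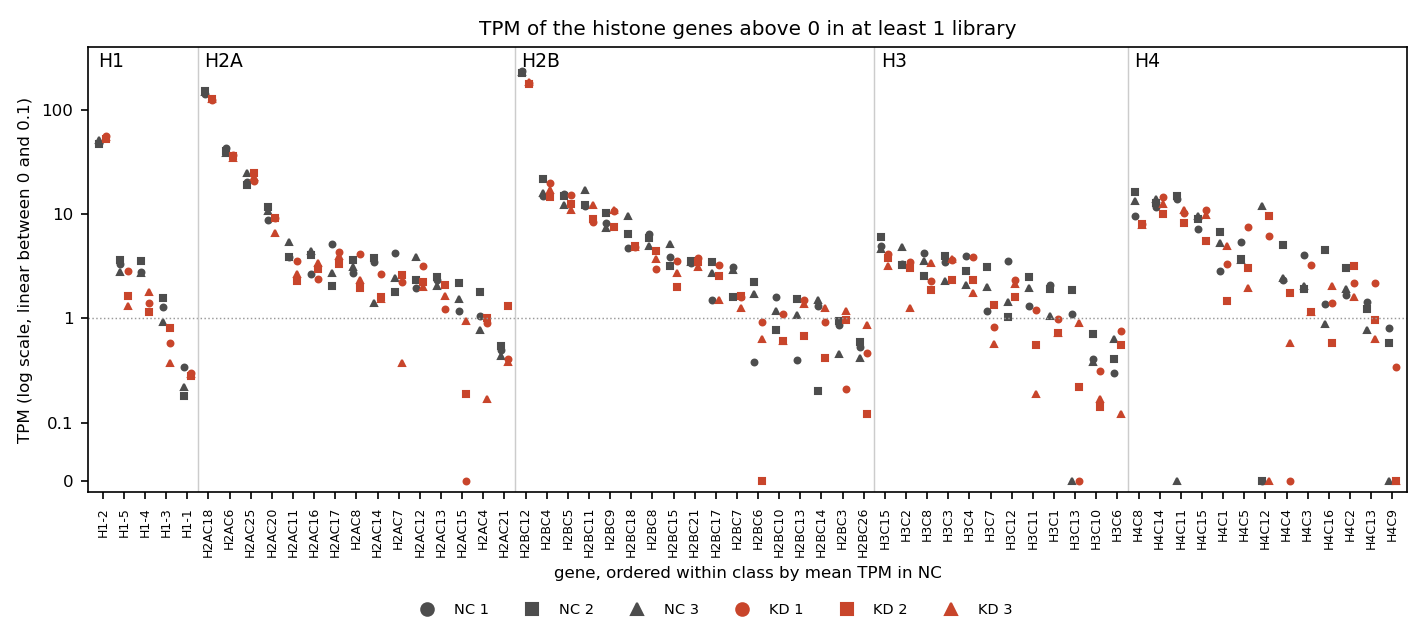
TPM in each of the 6 libraries (log axis, linear between 0 and 0.1) for the histone genes above 0 in at least 1 library, ordered within each class by mean TPM in NC. The symbols are single libraries, the dotted line is at 1 TPM, and H2BC12 and H2AC18 stand above 100 TPM in every library.

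Summed over all 69 members, the libraries stood at 708, 732 and 717 TPM in NC and at 633, 589 and 602 TPM in KD. Every KD library was below every NC library, and the KD mean of 608 ± 22.5 TPM was 84.5% of the NC mean of 719 ± 12.2 TPM (SD, n = 3). Without H2BC12 and H2AC18 the sums were 328, 355 and 338 TPM in NC and 327, 285 and 287 TPM in KD, or 88.1% of NC, and KD 1 was then nearly level with NC 1. This subset was chosen after its values were seen, and no p is given for sums over members.

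**Figure D2:**
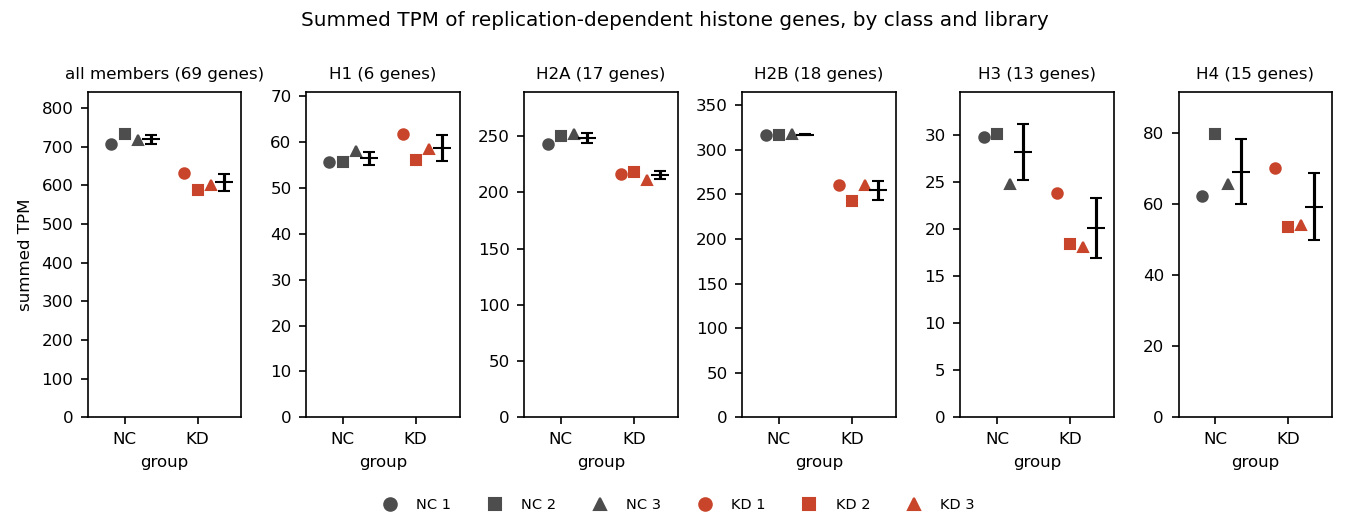
Summed TPM of all members and of each histone class in the 3 NC and 3 KD libraries (points), with mean and SD beside them (bars). The KD libraries lie below the NC libraries for all members, H2A, H2B and H3, and overlap with them for H1 and H4.

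Single genes were compared by limma on log2(TPM + 1), over the 13722 genes that averaged 1 TPM or more, and a gene was called at an adjusted p under 0.05. The pseudocount of 1 makes the change of low genes look smaller than their ratio. Of the 69 members 49 were tested. By limma 9 of them (18.4%) were lower in KD, while 24.0% of all tested genes were lower, and 1 was higher, while 12.1% of all were. A called share below that of all genes is no result particular to histone genes. The lower members were H1-4, H2AC6, H2AC15, H2AC18, H2BC8, H2BC12, H3C15, H4C4 and H4C8, and the higher member was H1-2. A fold limit of at least 1 in log2 kept H4C4, against 1.20% of all genes that were lower by this rule. Leaving out NC 2 gave 4 lower members, 3 of them among the 9, leaving out KD 2 gave 5, all among the 9, and leaving out KD 3 gave 5, 4 of them among the 9. Testing with no limit on low values gave 3, where 8.71% of all genes were lower. Every KD library was below every NC library in 12 of the 49 members, against 32.8% of all tested genes, and above in 1, against 17.4%.

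A negative log2 fold change was found in 38 of the 49 tested members (77.6%) and in 8255 of all 13722 tested genes (60.2%), and the median log2 fold change was −0.30 for the members and −0.06 for all genes. With median-of-ratios scaling, which brings the median of all genes to 0.00, the median of the members was −0.22 and 5 members were lower. The calls of all genes then split into 2245 lower and 2306 higher, against 3295 and 1660 on the deposited scale, and into 2229 and 2233 with quantile normalization.

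**Figure D3:**
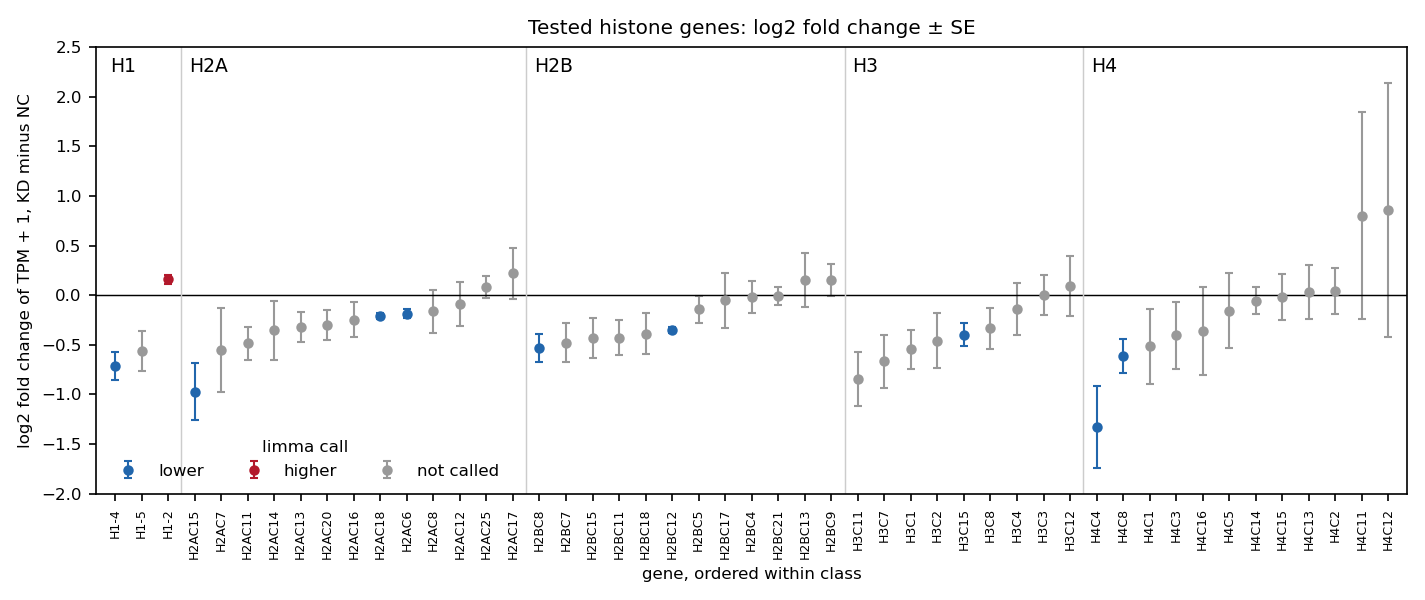
Log2 fold change of TPM + 1, KD minus NC, with its standard error, for the 49 tested histone genes, ordered within each class and coloured by limma call. Most points lie under 0, H2BC12 and H2AC18 have the narrowest errors, and H4C11 and H4C12 have the widest errors.

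The spread between libraries was wide in the low members. In the 34 members with a mean of 1 to 5 TPM the median coefficient of variation between NC libraries was 31.5%, against 14.7% in all genes of that level, and in the 15 members of at least 5 TPM it was 14.2% against 4.26%. By limma 5 of the 34 (14.7%) were lower, against 10.7% of all genes of that level, and 4 of the 15 (26.7%) were lower, against 29.3%. The median log2 fold change was −0.36 in the lower range and −0.14 in the higher range, where all genes had −0.04 and −0.07. The 20 members under 1 TPM were not tested and summed to 10.5 ± 1.86 TPM in NC and 6.87 ± 0.403 TPM in KD.

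Linker histone H1 binds the DNA between nucleosomes, and 3 of its 6 genes were tested. H1-2, which held most of the class sum, was at 47.9, 46.7 and 51.3 TPM in NC and at 56.5, 52.3 and 54.6 TPM in KD. The KD libraries were all above the NC libraries, by 0.16 in log2 (SE 0.047, limma adjusted p = 0.0397). H1-4 was at 2.78, 3.52 and 2.74 TPM in NC and at 1.41, 1.14 and 1.80 TPM in KD. Here the KD libraries were all below, by a log2 fold change of −0.72 (SE 0.14, limma adjusted p = 0.01). H1-5 read 3.35, 3.62 and 2.79 TPM in NC against 2.87, 1.64 and 1.32 TPM in KD, groups that overlapped in KD 1, and was not called (log2 fold change −0.56, limma adjusted p = 0.0756). H1-3 fell just under the limit for testing, with 1.29, 1.57 and 0.93 TPM in NC and 0.58, 0.81 and 0.37 TPM in KD, which did not overlap. H1-1 stayed under 0.4 TPM and H1-6, which is known from the testis, was at 0. The class sum was 56.4 ± 1.38 TPM in NC and 58.7 ± 2.77 TPM in KD (SD, n = 3), where the groups overlapped. With median-of-ratios scaling every KD library was above every NC library, at 109% of NC. On the deposited scale, without H1-2 it was 7.78 ± 1.10 against 4.27 ± 0.772 TPM, or 54.9% of NC. The call of H1-2 was lost in 9 of 17 alternatives, among them leaving out NC 1, NC 2, KD 1 or KD 3 (limma adjusted p from 0.0118 to 0.113 over the alternatives), whereas H1-4 was lost in 1, where its level was too low to be tested.

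H2A pairs with H2B in the nucleosome. The H2A members summed to 243, 250.3 and 251 TPM in NC and to 216, 218 and 211 TPM in KD, so that the KD libraries were all below and their mean was 86.6% of NC. H2AC18 was at 142, 151 and 149 TPM in NC and at 124, 127 and 128 TPM in KD. Its log2 fold change was small but precise at −0.22 (SE 0.030, limma adjusted p = 0.00232). H2AC18 has a copy, H2AC19, whose transcript holds every 150-base stretch of it unchanged, and H2AC19 was listed at 0 in all libraries, so the value may stand for both genes. H2AC6 was at 42.9, 40.5 and 38.8 TPM in NC and at 36.8, 35.8 and 34.3 TPM in KD, without overlap (log2 fold change −0.19, SE 0.048, limma adjusted p = 0.0244). H2AC15 was near the limit of testing, with 1.17, 2.18 and 1.54 TPM in NC and 0, 0.19 and 0.95 TPM in KD, where KD 1 was listed at 0 (log2 fold change −0.97, SE 0.29, limma adjusted p = 0.0413). H2AC25, the H2A gene of the small chromosome 1 cluster, was at 20.5, 19.0 and 24.9 TPM in NC and at 20.8, 24.6 and 22.5 TPM in KD, which overlapped. Of 13 H2A members tested 3 were lower (23.1%, against 24.0% of all genes) and none higher, the other 10 having log2 fold changes from −0.55 (H2AC7) to 0.22 (H2AC17). H2AC6 lost its call in 7 of 17 alternatives, among them both scalings and leaving out NC 1, NC 2, KD 2 or KD 3 (limma adjusted p from 0.0178 to 0.146 over the alternatives), and H2AC15 lost it in 12 of 17 alternatives (0.0132 to 0.109 where tested).

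H2B had the highest summed TPM of the classes. Its 18 members summed to 317, 316 and 317 TPM in NC and to 261, 242 and 260.2 TPM in KD, or 80.3% of NC. Without H2BC12 they summed to 78.8, 89.7 and 87.5 TPM in NC and to 79.4, 65.4 and 74.0 TPM in KD, where KD 1 stood within the NC range. H2BC12 alone was at 238, 226 and 229.8 TPM in NC and at 181, 177 and 186 TPM in KD. The groups were far apart beside their spread, with a log2 fold change of −0.35 (SE 0.029, limma adjusted p = 0.000288). H2BC12 lies at chr6:27146418-27146798 on the minus strand in GENCODE 29 (GRCh38), where its model is coding sequence only, and none of its 150-base stretches occurs in a transcript of another gene. H2BC8 was at 6.37, 5.96 and 4.99 TPM in NC and at 2.97, 4.44 and 3.70 TPM in KD, again without overlap (log2 fold change −0.53, SE 0.14, limma adjusted p = 0.0264). The next most abundant H2B genes were not called. H2BC4 had 17.5 ± 3.79 TPM in NC and 17.2 ± 2.63 TPM in KD, and H2BC5 had 14.3 ± 1.91 and 12.9 ± 2.16 TPM (SD, n = 3). H2BC11 read 11.9, 12.2 and 16.9 TPM in NC against 8.41, 8.95 and 12.3 TPM in KD, groups that overlapped in KD 3. Of 12 H2B members tested 2 were lower (16.7%, against 24.0% of all genes) and 10 had a negative log2 fold change (83.3%, against 60.2%), H2BC9 and H2BC13 being the 2 above 0. The calls of H2BC12 and H2AC18 were kept in all 17 alternatives, and that of H2BC8 in 10 (limma adjusted p from 0.0197 to 0.084 where tested).

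H3 and H4 form the core tetramer of the nucleosome. H3 had the lowest summed TPM of the classes, at 29.8, 30.1 and 24.8 in NC and 23.8, 18.5 and 18.1 in KD. Its KD mean was 71.4% of NC. NC 3 and KD 1 were close, and with median-of-ratios scaling they crossed, at 24.1 and 24.4. H3C15 was the most abundant member, at 4.95, 5.98 and 4.66 TPM in NC and 4.16, 3.81 and 3.15 TPM in KD. Of the 9 H3 members tested it was the 1 called (11.1%, against 24.0% of all genes lower), with a limma adjusted p near the limit (log2 fold change −0.40, SE 0.12, limma adjusted p = 0.0432, from 0.0397 to 0.116 over the alternatives). The call was lost in 11 of 17 alternatives, among them both scalings and leaving out any library but KD 1. H3C14 holds every 150-base stretch of H3C15 and was at 0, so this value too may stand for both genes. H3C11 had 1.31, 2.48 and 1.94 TPM in NC and 1.21, 0.55 and 0.19 TPM in KD, which did not overlap, yet it was not called (log2 fold change −0.85, limma adjusted p = 0.0517). H3C3 was level at 3.25 ± 0.856 TPM in NC and 3.25 ± 0.778 TPM in KD, and H3C12 had a log2 fold change of 0.09.

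H4 varied most from library to library. Its members summed to 62.3, 79.6 and 65.7 TPM in NC and to 70.2, 53.5 and 54.1 TPM in KD, so that KD 1 stood within the NC range. H4C14 was at 11.7, 12.9 and 13.8 TPM in NC and at 14.7, 9.91 and 12.5 TPM in KD. Its log2 fold change of −0.06 was within its error, the sign turned with both scalings, and 92.2% of its 150-base stretches occur in H4C15 as well. H4C8 was at 9.51, 16.1 and 13.5 TPM in NC and at 8.08, 8.03 and 7.87 TPM in KD, where the KD libraries were nearly equal and all below (log2 fold change −0.61, SE 0.17, limma adjusted p = 0.0312). H4C4 was at 2.32, 5.02 and 2.43 TPM in NC and at 0, 1.75 and 0.58 TPM in KD. The size of its log2 fold change, −1.33, came with a wide error (SE 0.41, limma adjusted p = 0.0464), and the call was kept in 3 of 17 alternatives against 11 for H4C8 (limma adjusted p from 0.0111 to 0.127 and from 0.0027 to 0.0911). H4C8 lost it on leaving out NC 2, NC 3 or any KD library, and H4C4 on leaving out any library but KD 2. The 2 were 16.7% of the 12 H4 members tested, against 24.0% of all genes, and of the other 10 none was called and 4 had a log2 fold change above 0.

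H4C11 and H4C12 are hard to read apart. All 163 of the 150-base stretches of H4C12 occur in H4C11, where they are 163 of 224, and the length of 150 bases is that of the reads. H4C11 was at 14.0, 14.8 and 0 TPM in NC and at 10.3, 8.19 and 11.1 TPM in KD, and H4C12 was at 0, 0 and 11.9 TPM in NC and at 6.19, 9.67 and 0 TPM in KD. Each library listed at 0 for H4C12 had the whole level under H4C11, and in NC 3 it was the other way round. The log2 fold change of H4C11, 0.80, turned below 0 on leaving out NC 3, and H4C11 was then called lower. Their sum was steadier, at 14.0, 14.8 and 11.9 TPM in NC and 16.5, 17.9 and 11.1 TPM in KD, which overlapped. Over all members 52 had no 150-base stretch in common with a transcript of another gene, 17 had some and 5 had every one shared (H2AC18, H3C4, H3C14, H3C15 and H4C12). These stretches come from GENCODE 29 models, and the annotation behind the TPM values is not named in the sources used here. The estimates of these 17 are uncertain gene by gene. A class sum is less exposed where both copies belong to the class, as with H4C11 and H4C12, but not for H2AC7, H2AC17, H2BC18, H2BC26, H3C4, H3C12 and H3C13, which share stretches with a gene of another class or with one that is no member.

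**Figure D4:**
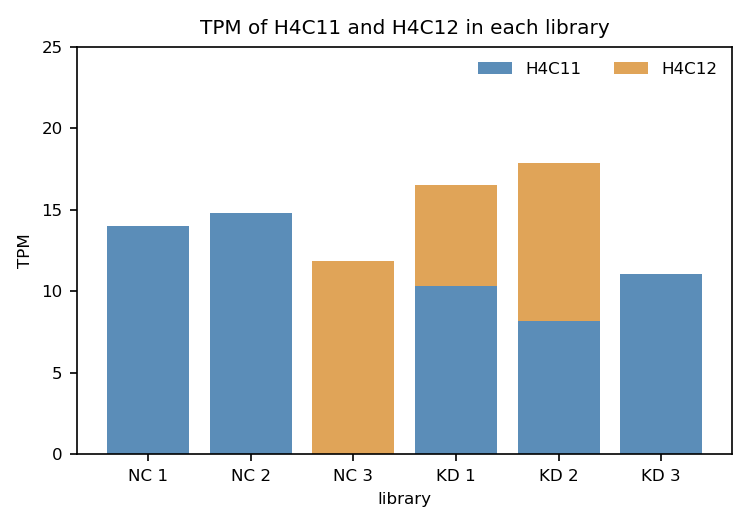
TPM of H4C11 and H4C12 in each library, stacked. The level is listed under H4C11 in 3 libraries, under H4C12 in NC 3 and is divided between them in KD 1 and KD 2, while the stack stays between 11.1 and 17.9 TPM.

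By place in the genome, the HIST1 members on chromosome 6 summed to 499 ± 7.86 TPM in NC and 414 ± 20.9 TPM in KD (83.1% of NC), and the HIST2 members on chromosome 1 to 196 ± 10.3 and 169 ± 3.40 TPM (86.3%). Neither pair of groups overlapped. In HIST1 7 of 40 tested members were lower by limma and 1 higher, and in HIST2 2 of 7 were lower, against 24.0% lower and 12.1% higher of all tested genes. The 2 HIST3 genes summed to 22.0 ± 2.97 TPM in NC and 23.1 ± 1.75 TPM in KD, which overlapped, and H4C16, the HIST4 gene, had 2.26 ± 1.98 and 1.35 ± 0.741 TPM. Members with a polyadenylation signal in an annotated transcript had a median of 5.86 TPM and a median log2 fold change of −0.17 over 18 tested, and the others had 1.99 TPM and −0.35 over 31 tested. The others included the 32 members with coding sequence only (21 tested), H2BC12 among them, where no signal could be seen. The sets therefore also differ in annotation.

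Other histone genes and the genes that serve these histones were taken from lists. Beside the counts below stand the 24.0% of all tested genes that were lower and the 12.1% that were higher, or 16.4% and 16.8% with median-of-ratios scaling. Of 12 genes listed as replication-independent variants 10 were tested, and by limma 4 were lower and 1 higher, or 4 and 2 with either scaling. H2AZ1, the most abundant, was at 1316, 1312 and 1288 TPM in NC and at 1191, 1143 and 1157 TPM in KD (log2 fold change −0.17, limma adjusted p = 0.00111). The other lower genes were H2AJ (−0.52), H2AX (−0.36), which marks DNA breaks when phosphorylated, and CENPA (−0.35), the H3 variant of centromeres. H3-3A, which encodes the H3.3 placed outside replication, was higher by 0.22. The median of the variants was −0.04, and 0.03 with median-of-ratios scaling, and its difference from the median of the replication-dependent genes was not tested.

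Of 18 genes for the synthesis and processing of histone mRNA, 6 were lower by limma and 1 higher, and 4 were lower with either scaling. SLBP, which binds the stem-loop shown above, was level at 83.2 ± 0.227 TPM in NC and 82.2 ± 1.99 TPM in KD, and NPAT, the coactivator of histone transcription, had 2.60 ± 0.204 and 2.71 ± 0.586 TPM (SD, n = 3). Neither was called. HINFP, which activates H4 genes, was at 5.48, 6.03 and 5.04 TPM in NC and at 3.33, 3.82 and 4.78 TPM in KD, lower in every KD library (log2 fold change −0.40, limma adjusted p = 0.0478), a call lost in 12 of the 16 alternatives that tested it (0.0189 to 0.134). ZNF473 (−0.38) and LSM10 (−0.16, not called with either scaling), both of the U7 machinery, SRRT (−0.34), CSTF2 (−0.30) and UPF1 (−0.23), which acts in histone mRNA decay, were also lower, and MIF4GD, a partner of SLBP in translation, was higher by 0.43. Of 19 histone chaperone genes 7 were lower and 1 higher, and 3 were lower with median-of-ratios scaling and 4 with quantile normalization. CHAF1A (−0.56) and ASF1B (−0.40), which place new H3 and H4 behind the replication fork, NAP1L4 (−0.26) and NAP1L1 (−0.09), the most abundant but not called with either scaling, were among the lower genes, and CABIN1 of the HIRA complex was higher by 0.39.

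Many genes of the cell cycle were also lower in KD. Of 33 S-phase genes 16 were lower by limma and 2 higher, and their summed TPM in KD was 88.6% of NC. MCM3, a subunit of the replicative helicase, was at 192, 192 and 190.1 TPM in NC and at 115, 115 and 117 TPM in KD (log2 fold change −0.72, limma adjusted p = 4.37e-06), while MCM6 of the same helicase was higher by 0.33. CDK2 (−0.38), RFC3 (−0.36), RRM1 (−0.35) and RRM2 (−0.14), whose call was lost in 6 of 17 alternatives, were also lower. All 12 G2/M genes were lower, from −0.54 for AURKA and −0.49 for BUB1 to −0.14 for UBE2C, with CENPF at −0.41 and CDK1 at −0.40, and they summed to 81.1% of NC. Of 7 tested genes of G1 control 3 were lower, the inhibitor CDKN1A (−0.57) and the cyclins CCND1 (−0.53) and CCND3 (−0.19). The median was −0.14 for S phase, −0.36 for G2/M and −0.09 for G1 control, beside −0.30 for the histone genes. With median-of-ratios scaling these were −0.08, −0.29 and −0.02, beside −0.22, and 12 S-phase genes and all 12 G2/M genes were lower. The part of the cell cycle in the histone levels was not tested.

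**Figure D5:**
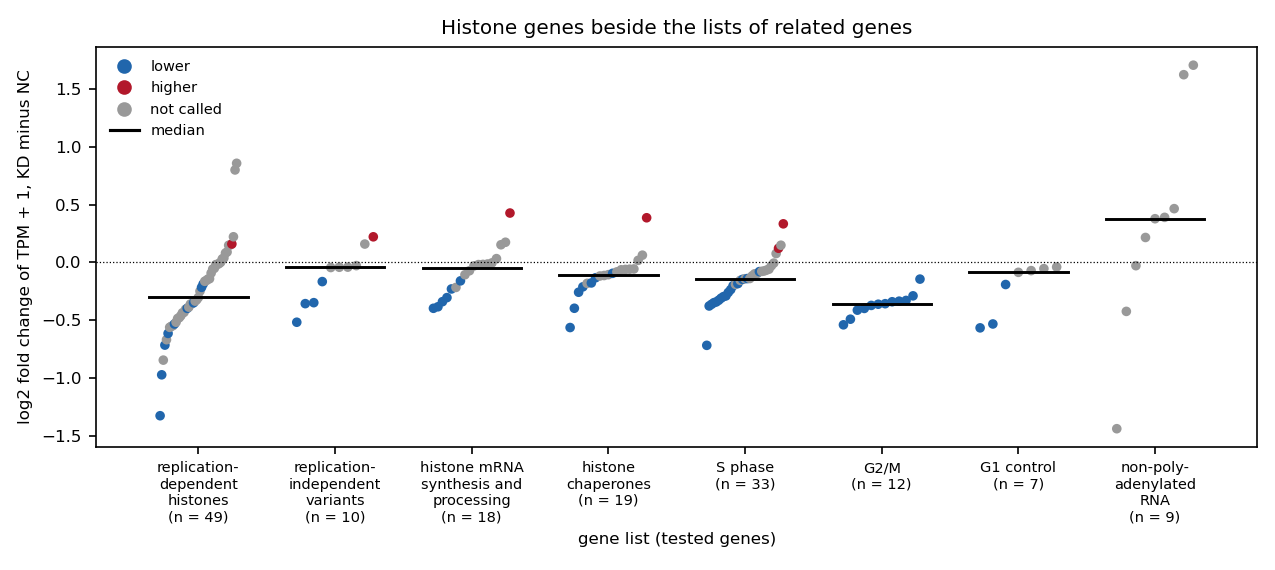
Log2 fold change of TPM + 1, KD minus NC, of each tested gene (points, coloured by limma call) in the replication-dependent histones and 7 lists, with the median of each list (line). The histone genes spread more widely than the S-phase or G2/M genes and have a median between theirs.

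RNAs that carry no poly(A) tail were read as a separate list, and how they or histone mRNAs entered the libraries was not tested. The 12 genes summed to 725, 688 and 727 TPM in NC and to 1257, 834 and 723 TPM in KD, so that KD 1 stood above all others. RN7SL2, the most abundant, was at 335, 351 and 355 TPM in NC and 635, 440.4 and 395 TPM in KD. By limma none of the 9 tested was called, with RNU1-1 at an unadjusted p of 0.024 and RN7SL2 at 0.0279 the 2 under 0.05. RN7SL2 was called higher in 3 of 17 alternatives, with median-of-ratios scaling and on leaving out KD 1 or KD 3 (limma adjusted p from 0.0167 to 0.169 over the alternatives). KD 1 was also the KD library with the highest sum of all histone members and of every class but H2A, and the part of RNA without a tail in this was not tested.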

How the data were processed

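Total RNA of 6 U87 libraries, 3 KD and 3 NC by their titles, was sequenced as paired reads of 150 bases. The labels name a SMARTER mRNA kit and the methods of the study a TruSeq kit. The authors deposited TPM per gene, rounded to 0.01; per the submitters' processing notes fastp, RSEM and GRCh38.p13 were used, with versions not given in the sources used here. RSEM divides reads that fit several genes, which matters for histone copies. No column was left out. Gene IDs were named from a symbol table, and gene types came from GENCODE 29, or for 4 members from RefSeq by symbol, with coordinates from GENCODE 29 by older symbol.

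Log2(TPM + 1) was compared, KD minus NC, with limma 3.58.1 in R 4.3.3 (lmFit and eBayes with trend) for genes averaging 1 TPM or more across all 6 libraries, with Benjamini-Hochberg adjustment over all of them and calls at 0.05. The fit was tested on simulated data. Sums over members and the exact permutation test of CHRM3 were computed in Python 3.11.15 with pandas 2.3.3 and scipy 1.17.1. Alternatives were pseudocounts of 0.1 and 0.5, limits of 0, 0.1 and 5 TPM, median-of-ratios scaling, quantile normalization, rescaling to protein-coding genes, eBayes without trend, the replicate number as a block, each library left out, and genes with older HIST symbols.

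Named genes were, in each class, the most abundant member (mean of 6 libraries) and up to 3 with the largest log2 fold change among those called, and in each list the most abundant tested gene and up to 4 such genes. Other members were named where their class was described, and SLBP, NPAT, CSTF2, UPF1, MCM6, RNU1-1 and the other markers after their values were seen. The lists held 132 genes. Members and lists were chosen with earlier results of these data known. Stem-loops and shared stretches came from GENCODE 29 transcripts, and promoters from RefSeq.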

Additional observations from a re-analysis of the deposited data

How the results depend on the processing

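Against 9 members lower by limma, 3 were lower with no limit on low values (8.71% of all genes), 4 at a mean of at least 5 TPM (30.6%), 5 with median-of-ratios scaling (16.4%), 5 with quantile normalization (16.2%) and 4 to 8 on leaving out 1 library, of which 3 to 5 were among the 9 (18% to 20% of all genes, against 24.0%). The cause of the shift with scaling was not tested. Fewer members were tested at 5 TPM, and more genes with no limit. Against 1 member higher, 0 were higher with no limit, at 0.1 TPM, with eBayes without trend, with the replicate block and when pseudocount and limit were both 0.1, a choice made after seeing the data, and 0 or 1 on leaving out 1 library. H2BC12 and H2AC18 were called in all 17 alternatives and H1-4 wherever tested. Of 31 called genes named from the lists by rule, 23 were called in every alternative that tested them and 8 lost the call in some, HINFP in 12 and RRM2 in 6.

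Genes past the fold limit numbered 256, and 399 with a pseudocount of 0.1, 145 at 5 TPM and 609 when both were 0.1. The summed TPM, 84.5% of NC, was 88.8% with median-of-ratios scaling, 88.4% with quantile normalization and 88.1% without H2BC12 and H2AC18, the last chosen after seeing the data. The log2 fold change of H4C14, −0.06, turned to 0.0079 with median-of-ratios scaling and 0.0106 with quantile normalization, and ranged from −0.1812 to 0.0818 on leaving out 1 library, above 0 without KD 2. The cause was not tested.

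Replicate numbers did not pair the libraries, as deviations of libraries with the same number correlated by −0.0198, 0.0341 and 0.0334. The replicate block gave 8 members lower, 7 of them among the 9 (19.2% of all genes). Depth is unknown.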

Other observations

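Transcripts of the mitochondrial genome took up less of the total in the libraries labelled CHRM3 knockdown. They summed to 53188, 54162 and 54705 TPM in NC and to 48721, 44134 and 44354 TPM in KD. Small nucleolar, Cajal body and nuclear RNA genes summed to 918, 843 and 878 TPM in NC and to 895, 582 and 817 TPM in KD, which overlapped. These sums were not tested.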
